A study of Mus musculus with 9 samples.

Results

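The genes described here are feedback inhibitors and kinases that cytokine receptors switch on through JAK-STAT signaling, with the ligand gene *Osm* and the repressor gene *Bcl6*. Their RNA was measured in clones of a murine acute myeloid leukemia (AML). They were taken by name, as *Osm*, *Socs1*, *Socs2*, *Socs3*, *Cish*, *Pim1*, *Pim2*, *Pim3* and *Bcl6*, and all 9 had a row among the 55401 genes of each deposited table. The choice was made with earlier results of these data known. RNA-Seq covered 9 libraries in 3 groups of 3. The pre-malignant group came from mouse #15, killed before leukemia was manifest, with 1 library each for clone 33BC-D, clone 38BC-D and clone 43BC-D. Libraries of the de novo expanded group were made from these 3 clones after they had grown out in mouse #17, #13 and #14, respectively, at their leukemic endpoint. From each of these 3 endpoint mice, clone 34BC-D gave a library of the stably expanded group. All groups came from H9M cells, lineage-negative bone marrow cells of C57BL/6-Ly5.1 mice that a gammaretroviral vector made express *Meis1*, *Hoxa9* and a puromycin resistance gene. A lentiviral color-code vector marked each clone and supplied the truncated EGFR used for sorting. The recipients were lethally irradiated C57Bl6/J mice that also received helper marrow. Splenocytes were thawed and sorted for CD45.1, bright EGFRt, cKit and 1 color code per library, with CD11b dim in the study's methods and dim or absent in the labels. The ages of the mice are not given in the sources used here.

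Cytokine receptors without kinase activity of their own signal through JAK kinases bound to their tails, which phosphorylate STAT factors. STAT dimers then enter the nucleus and transcribe target genes, among them the SOCS family inhibitors and *Cish*, which bind receptors or JAKs and shut the signal down, and the PIM kinases, constitutively active serine/threonine kinases that favor survival and growth of hematopoietic cells. Oncostatin M, encoded by *Osm*, is a cytokine of the IL-6 family that signals through the shared chain gp130, and BCL6 is a transcriptional repressor that can bind STAT-like sites.

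Reads on genes numbered 10379739 to 15551196 per library, and mitochondrial genes took 8.54 to 13.1% of them. Genes with a read numbered 27896 to 30548 in the pre-malignant, 23537 to 27989 in the de novo expanded and 21618 to 27067 in the stably expanded libraries. The part of this difference in the values below was not tested. Labels link the columns of the tables to groups and not to single samples, so libraries carry the numbers 1 to 3 within each group, which name neither a clone nor a mouse. All pre-malignant libraries come from 1 mouse and all stably expanded libraries from 1 clone, so that group, mouse and clone cannot be told apart, and p-values measure the spread between these libraries only. In bulk samples, fewer cells of a type and less RNA per cell cannot be told apart. Values per library are normalized counts, which are reads divided by a size factor set over all 9 libraries. Limma fitted fold changes in the 6 libraries of each table, on a scale of log2(normalized count + 1), and to be called a gene needed a change of at least 2-fold and an adjusted p (Benjamini-Hochberg) under 0.05. With 3 libraries per group, 0.1 is the smallest two-sided p that an exact permutation test allows. The 11 marker genes of the sorted progenitors (*Kit*, *Itgam*, *Ptprc*, *Hoxa9*, *Meis1*, *Mpo*, *Elane*, *Prtn3*, *Ctsg*, *Flt3* and *Cd34*) each had more than 3 reads in at least 1 library of every group, while the 10 T cell markers summed to 16.3 to 62.3 normalized counts per library.

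STAT dimers recognize palindromic sites of the form TTCNNNGAA, which reads the same on both strands, so the promoter windows of the 9 genes were searched for it. RefSeq windows on GRCm38.p6, from 250 bases before to 50 bases after a transcript start, were found for 7 of the 9 genes (9 windows). *Socs2* and *Osm* had no entry. The site was present in 4 windows of *Socs3*, *Cish* and *Bcl6*, against 8.30% of all 32851 windows. The AP-1 site TGANTCA, searched on both strands, was in none of the 9 windows, against 7.81% of all windows. Shown are the windows of *Pim1* and *Socs1*, which were called below, and those of *Cish* and *Socs3*, which hold the site. Capitals mark TTCNNNGAA, and the transcript start is base 251. The *Pim1* window is chr17:29490535-29490834 on the plus strand, the *Socs1* window chr16:10785487-10785786 on the minus strand, the *Cish* window chr9:107296409-107296708 on the plus strand and the *Socs3* window chr11:117969317-117969616 on the minus strand.
Pim1: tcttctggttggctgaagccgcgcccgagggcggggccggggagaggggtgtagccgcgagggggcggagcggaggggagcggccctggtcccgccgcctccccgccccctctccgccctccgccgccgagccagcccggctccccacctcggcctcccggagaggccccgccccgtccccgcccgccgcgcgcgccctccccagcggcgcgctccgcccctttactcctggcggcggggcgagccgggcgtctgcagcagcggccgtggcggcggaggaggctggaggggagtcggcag
Socs1: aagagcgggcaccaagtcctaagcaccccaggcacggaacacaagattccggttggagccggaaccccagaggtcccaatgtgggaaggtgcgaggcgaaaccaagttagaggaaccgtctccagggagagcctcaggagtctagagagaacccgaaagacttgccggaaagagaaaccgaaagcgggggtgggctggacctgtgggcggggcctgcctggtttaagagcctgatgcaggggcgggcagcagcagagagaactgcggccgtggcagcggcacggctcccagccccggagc
Cish: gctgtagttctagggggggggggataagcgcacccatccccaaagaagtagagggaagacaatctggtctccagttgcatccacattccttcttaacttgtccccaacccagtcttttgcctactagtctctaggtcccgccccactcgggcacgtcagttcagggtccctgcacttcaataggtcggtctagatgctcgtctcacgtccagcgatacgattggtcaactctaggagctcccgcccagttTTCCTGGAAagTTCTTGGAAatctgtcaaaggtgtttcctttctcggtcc
Socs3: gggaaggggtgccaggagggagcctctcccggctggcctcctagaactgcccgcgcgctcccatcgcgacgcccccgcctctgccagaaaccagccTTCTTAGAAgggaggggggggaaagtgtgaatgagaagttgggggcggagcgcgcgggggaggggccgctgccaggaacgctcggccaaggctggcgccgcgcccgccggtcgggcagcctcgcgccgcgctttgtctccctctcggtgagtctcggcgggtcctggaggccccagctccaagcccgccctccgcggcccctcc
*Cish* holds the site at bases 251 to 259 and again at bases 262 to 270 of its window, directly after the start, and *Socs3* at bases 97 to 105. Of the 2 windows of *Bcl6*, chr16:23988803-23989102 holds the site at 1 position and chr16:23981234-23981533 at 3, both on the minus strand. The windows of *Pim1* (including a second start at chr17:29492835-29493134), *Socs1*, *Pim2* and *Pim3* do not hold these letters. A match is a description of the sequence, and these data hold no measure of STAT binding.

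Levels of the 9 genes can be compared per kilobase of exon. In the pre-malignant libraries *Pim1* was highest, with 311 ± 16.3 normalized counts per kb (SD, n = 3), followed by *Osm* with 173 ± 19.1 and *Pim3* with 127 ± 10.9. *Socs1* followed with 33.6 ± 6.04 and *Pim2* with 18.9 ± 6.44. Down to *Pim2*, no library of a gene reached the level of the next gene in the order. The lowest levels were those of *Bcl6* (13.3 ± 2.16), *Socs3* (11.0 ± 4.50), *Cish* (5.64 ± 0.649) and *Socs2* (3.63 ± 3.41), and from *Pim2* downward each gene overlapped with the next. In the stably expanded libraries *Pim1* was again highest (134 ± 22.1), but *Pim3* (87.2 ± 6.32) then came before *Osm* (64.1 ± 22.9), with overlapping libraries.

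The ligand gene *Osm* (ENSMUSG00000058755.3) lies on chromosome 11 from 4236420 to 4241026. Its normalized counts were 344.6, 426.1 and 410.9 in pre-malignant libraries 1 to 3, 253.0, 265.0 and 79.4 in de novo expanded and 118.5, 205.7 and 112.8 in stably expanded libraries. All leukemic libraries lay below all pre-malignant ones.

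**Figure D1:**
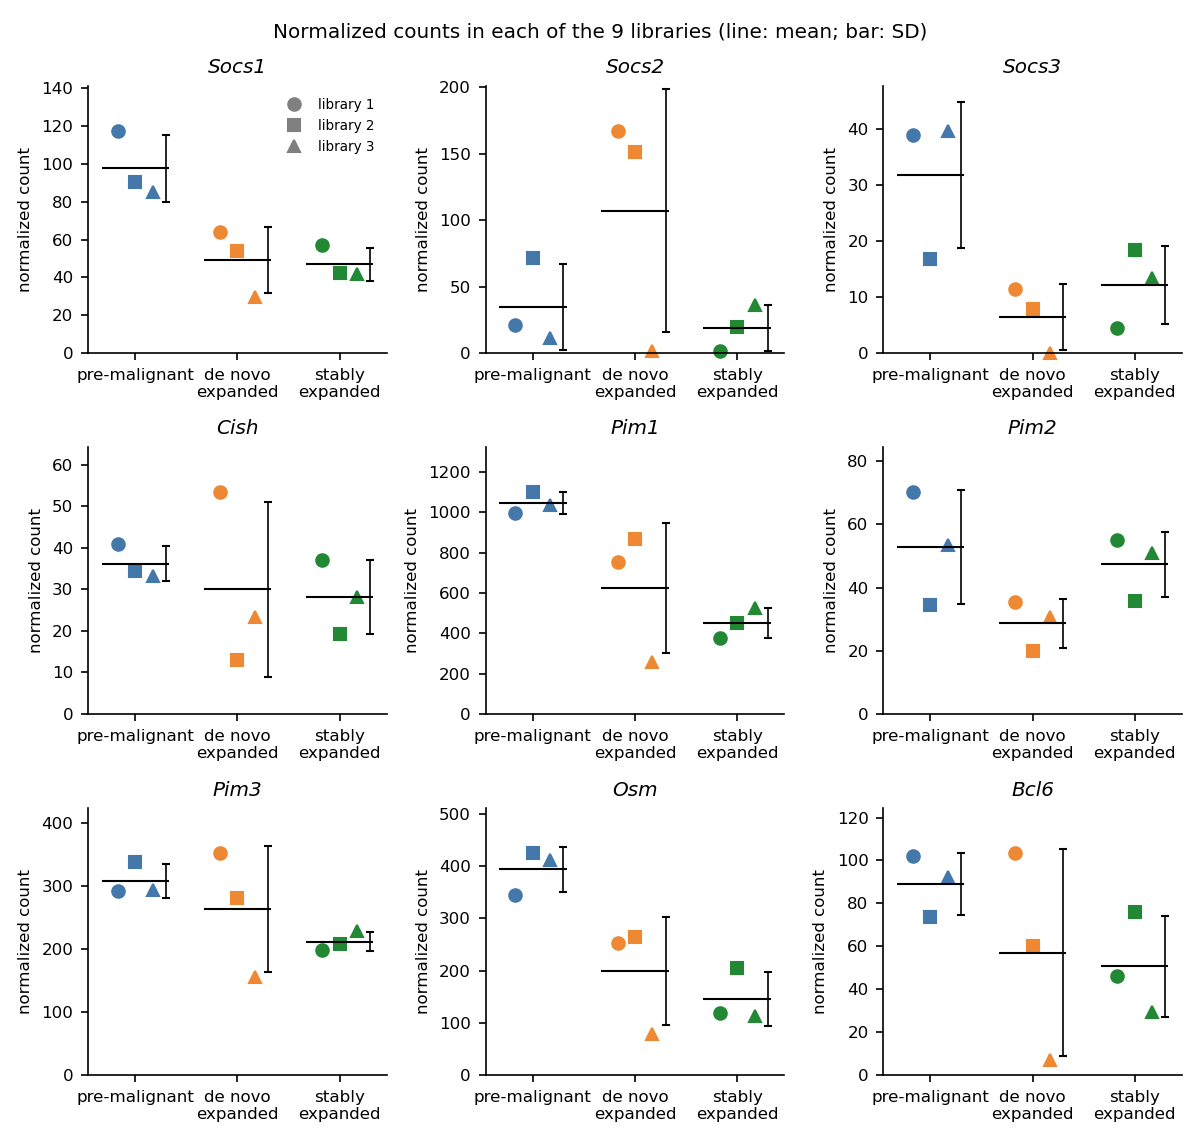
Normalized counts (linear axes from 0) of the 9 genes in each library, by group, with libraries 1 to 3 as circle, square and triangle, the mean as a line and the SD as a bar. *Pim1*, *Osm* and *Socs1* are lower in all 6 leukemic libraries than in the 3 pre-malignant ones, and de novo expanded library 3 (orange triangle) is the lowest library in 7 of the 9 panels.

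Among the inhibitors, *Socs1* (ENSMUSG00000038037.5; chromosome 16, 10782240 to 10785536), the SOCS protein that blocks JAK catalytic activity and curbs interferon and IL-6 signals, had 117.7, 90.3 and 85.0 normalized counts in the pre-malignant, 63.8, 54.0 and 29.8 in the de novo expanded, and 57.0, 42.2 and 41.6 in the stably expanded libraries. It separated the groups like *Osm*, and the leukemic groups overlapped. *Socs3* (ENSMUSG00000053113.3; chromosome 11, 117966079 to 117970047), which inhibits signaling through gp130 and the G-CSF receptor, had few reads, with 38.9, 16.7 and 39.7 normalized counts in the pre-malignant, 11.4, 7.85 and 0 in the de novo expanded, and 4.52, 18.4 and 13.4 in the stably expanded libraries. Its 0 in de novo expanded library 3 allows up to 3 reads, and its stably expanded libraries overlapped the pre-malignant ones. *Socs2* (ENSMUSG00000020027.18; chromosome 10, 95385362 to 95417180), a STAT5 target that restrains growth hormone signaling, varied most within groups. It had 21.0, 71.6 and 11.1 normalized counts in the pre-malignant, 167.5, 151.7 and 1.80 in the de novo expanded, and 1.81, 19.3 and 36.3 in those of the stably expanded clone. The values 1.80 and 1.81 stand for 2 reads each, so that within the de novo expanded group the highest library was 92.9 times the lowest. *Cish* (ENSMUSG00000032578.7; chromosome 9, 107296026 to 107302784), another STAT5 target, had 41.0, 34.4 and 33.2, then 53.6, 13.1 and 23.4, then 37.1, 19.3 and 28.2 normalized counts in the 3 groups in the same order, all of which overlapped.

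Of the kinases, *Pim1* (ENSMUSG00000024014.8; chromosome 17, 29490753 to 29496112) was the most abundant, with 994.9, 1104 and 1035 normalized counts in the pre-malignant, 753.3, 865.6 and 257.0 in the de novo expanded, and 376.4, 452.7 and 525.1 in the libraries of the stably expanded clone. The pre-malignant libraries lay above all others and close together, 1.11-fold between the highest and the lowest, while the de novo expanded libraries spanned 3.37-fold. *Pim3* (ENSMUSG00000035828.11; chromosome 15, 88862186 to 88865726) had 292.1, 338.7 and 293.6 in the pre-malignant, 353.3, 280.7 and 155.1 in the de novo expanded, and 198.2, 208.4 and 228.3 in the stably expanded libraries. Only the stably expanded libraries were all below the pre-malignant ones. *Pim2* (ENSMUSG00000031155.17; chromosome X, 7878262 to 7883432) had 70.4, 34.4 and 53.6 in the pre-malignant, 35.3, 20.05 and 30.7 in the de novo expanded, and 55.2, 35.8 and 51.0 in the stably expanded libraries, with the leukemic groups just separate and both overlapping the pre-malignant one. The repressor gene *Bcl6* (ENSMUSG00000022508.5; chromosome 16, 23965052 to 23988852) had 101.9, 73.5 and 92.3, then 103.7, 60.1 and 7.22, then 46.15, 76.2 and 29.5 normalized counts, so that each leukemic group overlapped the pre-malignant one.

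On the scale of all 9 libraries, 3 of the 9 genes (*Pim1*, *Osm* and *Socs1*) had all 6 leukemic libraries below all 3 pre-malignant ones, as had 5.59% of 13960 genes (780 genes). De novo expanded library 3 held the lowest value in 7 of the 9 genes and de novo expanded library 2 in *Cish* and *Pim2*, while library 3 was lowest in 13.9% of all genes. Antisense genes overlap the exons of 3 of the genes. *Gm26885* covers 14.5% of the exonic bases of *Pim1* and had at most 16 reads, *Gm17040* and *Gm17041* cover 4.07 and 7.46% of *Cish* with at most 6 and 1 reads, and *Gm37419* covers 0.313% of *Bcl6* with at most 2. The strand setting of the counting is not given in the sources used here.

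The stably expanded clone was compared with the pre-malignant clones to find how a clone that had expanded in several mice differs from clones that have not yet expanded. The stably expanded clone has no pre-malignant library. Fell and rose, said of this comparison, therefore mean lower and higher than in other clones, not a change over time. *Pim1*, *Osm* and *Socs1* were lower in the stably expanded libraries, by 2.33-, 2.78- and 2.06-fold. All 9 genes had a fold change below 0 on the log2 scale, as had 49.5% of the genes tested, with a median of -1.04 against 0.00419 over all genes. Of the 9, 3 were called, against 2.75% of 13968 genes in either direction and 1.55% in the lower direction, or 3.61% lower with no fold limit. In 4 of the 9 genes (these 3 and *Pim3*) no library of one group reached the other, all lower, against 14.6% of all genes. Before adjustment, 6 of the 9 were under 0.05 by limma, all lower, against 12.3% lower and 25.4% in either direction among all genes. Because the 9 genes were chosen with earlier results of these data known, the shares describe them and do not test them as a set.

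*Pim1* fell by 1.22 on the log2 scale (standard error 0.14, adjusted p = 0.00284 from limma), from 1033 ± 53.1 to 447 ± 73.7 normalized counts (SD, n = 3) in this table. *Osm* fell by 1.48 (standard error 0.23, adjusted p = 0.00730 from limma), from 389 ± 42.3 to 144 ± 51.9. *Socs1* fell by 1.04 (standard error 0.28, adjusted p = 0.0479 from limma), from 96.6 ± 17.5 to 46.5 ± 8.54. The calls of *Pim1* and *Osm* held in every fit that left out 1 of the 6 libraries, with adjusted p-values of 0.00245 to 0.0146 and 0.00174 to 0.0365 from limma. The call of *Socs1* was lost in all 6 of these fits (pre-malignant libraries 1, 2 and 3 with 0.169, 0.115 and 0.0865, and stably expanded libraries 1, 2 and 3 with 0.0701, 0.102 and 0.0795), with edgeR (0.0505) and with DESeq2 (0.0723). It was also lost with a pseudocount of 5, with quantile normalization and with a minimum mean of 50 normalized counts. In 1 fit of all 9 libraries, in which the de novo expanded libraries enter the estimate of the spread, none of the 3 was called (*Pim1* 0.138, *Osm* 0.130 and *Socs1* 0.143 from limma), and only 6 of all genes were.

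**Figure D2:**
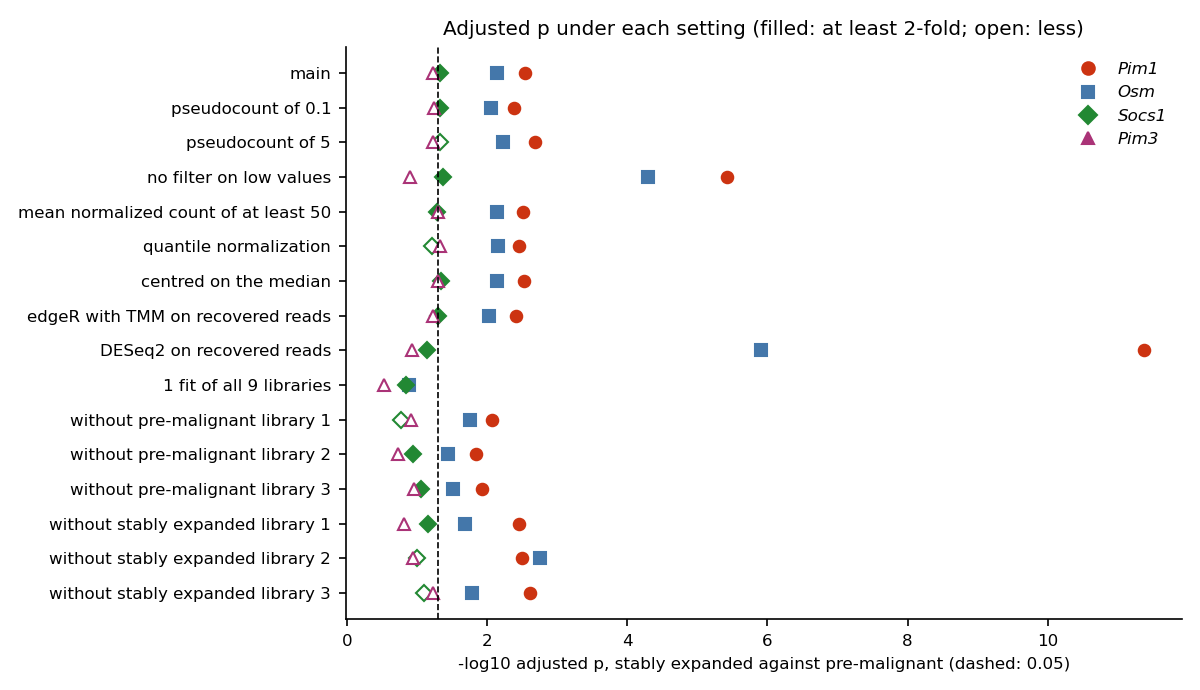
Adjusted p of *Pim1*, *Osm*, *Socs1* and *Pim3* in the stably expanded against the pre-malignant libraries, as -log10 on the horizontal axis (larger is a smaller p, dashed line at 0.05), under each setting of the analysis named on the vertical axis, with filled symbols for at least 2-fold change. *Pim1* and *Osm* pass everywhere except in 1 fit of all 9 libraries, while *Socs1* lies on either side of the line.

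The other 6 genes were not called in this comparison. *Pim3* had a log2 fold change of -0.54 (95% interval -0.88 to -0.19, adjusted p = 0.0584 from limma), and no library of one group reached the other. *Socs3* had -1.41 (-2.70 to -0.11, 0.163) and *Bcl6* -0.89 (-1.69 to -0.10, 0.148). The intervals of *Socs2* (-1.06, -3.10 to 0.99), *Cish* (-0.39, -1.23 to 0.45) and *Pim2* (-0.12, -0.91 to 0.67) included 0, with adjusted p-values of 0.509, 0.559 and 0.870 from limma. Those intervals still include a 2-fold lower level for *Socs2* and *Cish*, while that of *Pim2* does not reach it in either direction.

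**Figure D3:**
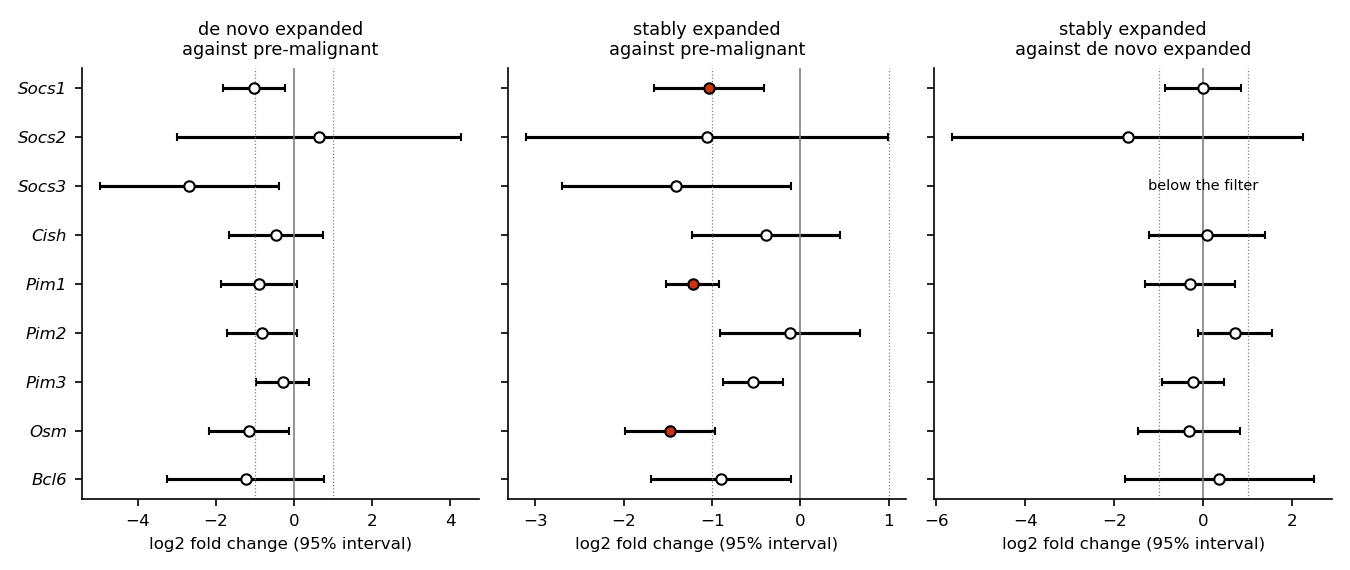
Log2 fold changes of the 9 genes in the 3 comparisons (horizontal axes, which differ between panels), with 95% intervals as bars, called genes in red and dotted lines at 2-fold. In the middle panel *Pim1*, *Osm* and *Socs1* are called and all 9 points lie below 0, while the intervals are widest for *Socs2*.

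De novo expanded and pre-malignant libraries were compared to find what changes when the same clones grow out. No gene was called by limma among the 9 or among all 14195 tested (0%), while 3 of the 9 (*Socs1*, *Socs3* and *Osm*), all lower, were under 0.05 before adjustment, against 5.26% of all genes in that direction and 1597 genes in either. EdgeR also called 0 of all genes, and DESeq2 called 42 but none of the 9. The log2 fold change was below 0 in 8 of the 9, against 49% of all genes, with a median of -0.90, and the groups did not overlap in 4 (*Socs1*, *Socs3*, *Pim1* and *Osm*), all lower, against 8.5% of all genes in that direction. This comparison shares the pre-malignant libraries with the one above, so the values of both are not independent.

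In this comparison *Osm* had a log2 fold change of -1.14 (95% interval -2.16 to -0.12, adjusted p = 0.421 from limma), *Socs1* -1.01 (-1.80 to -0.22, 0.402) and *Socs3* -2.68 (-4.97 to -0.39, 0.414). *Pim1* had -0.90 (-1.87 to 0.07, 0.462), *Pim2* -0.82 (-1.73 to 0.09, 0.470) and *Pim3* -0.28 (-0.96 to 0.39, 0.739). *Bcl6* had -1.24 (-3.24 to 0.76, 0.606), *Cish* -0.46 (-1.66 to 0.74, 0.768) and *Socs2* 0.65 (-2.99 to 4.29, 0.902). The sum of the 11 progenitor markers was 63674, 87352 and 312754 normalized counts in de novo expanded libraries 1 to 3, against 143043 to 151460 in the pre-malignant ones. The part of this sum in the values above was not tested. Without de novo expanded library 3, 214 genes were called, 1 of them among the 9. That gene was *Socs2*, which was then higher in the de novo expanded libraries by 2.597 on the log2 scale (adjusted p = 0.0429 from limma). Also without it, *Pim1* had -0.35 (0.116), *Osm* -0.58 (0.0711), *Socs1* -0.69 (0.194), *Socs3* -1.54 (0.142) and *Bcl6* -0.15 (0.831), and *Pim3* turned to 0.05.

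Stably expanded and de novo expanded libraries were compared to find what separates clones of unlike history in the same mice. Again no gene of the 9 was called, against 1 of 13758 genes (0.00727%), and none was under 0.05 before adjustment, against 4.83% of all genes. The log2 fold change was below 0 in 5 of the 8 tested, against 50.4% of all genes. EdgeR and DESeq2 called 0 of them as well. *Socs3*, with a mean of 9.16 normalized counts, lay under the minimum of 10 and was not tested. The groups did not overlap in *Pim2* alone, against 9.61% of all genes in either direction and 4.66% higher, and *Pim2* was at a log2 fold change of 0.72 in the stably expanded libraries (95% interval -0.12 to 1.55, adjusted p = 0.891 from limma).

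For *Pim1*, the log2 fold change of stably over de novo expanded was -0.30 (-1.31 to 0.71), for *Osm* -0.32 (-1.47 to 0.83) and for *Socs1* -0.01 (-0.87 to 0.84), so that a 2-fold lower level in the stably expanded clone lies within the intervals of *Pim1* and *Osm*. *Socs2* had -1.69 (-5.64 to 2.25), *Bcl6* 0.36 (-1.77 to 2.49), *Pim3* -0.23 (-0.93 to 0.46) and *Cish* 0.09 (-1.21 to 1.39). Without de novo expanded library 3, 508 genes were called, and *Socs2* was among them, lower in the stably expanded clone (log2 fold change -3.64, adjusted p = 0.0461 from limma). *Pim1* was then at -0.85 with an adjusted p of 0.0196 from limma, under the 2-fold limit, and *Bcl6* turned to -0.73 (0.425).

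Other genes of the pathway, and genes linked to it, were read from lists by role. In the stably expanded against the pre-malignant libraries, 5 of 21 other cytokine genes were expressed highly enough to be tested, all 5 were lower, and *Csf1*, the macrophage growth factor gene, fell by 1.64 on the log2 scale (299.8 ± 63.1 to 99.5 ± 40.8 normalized counts, adjusted p = 0.0103 from limma). Of 24 receptor genes 19 were tested, 4 higher and 15 lower, and 3 were called, all lower. The median was -0.77 in the 5 cytokine genes and -0.31 in the receptor genes. Of all 13968 genes tested in this comparison, 49.5% were below 0, 1.55% were called lower and 2.75% in either direction. *Il6st*, which encodes gp130, the chain that oncostatin M and IL-6 receptors share, fell by 1.37 (1231 ± 244 to 497 ± 208, adjusted p = 0.0116 from limma). *Il10ra*, the ligand-binding chain of the IL-10 receptor, fell by 1.57 (adjusted p = 0.0149 from limma). *Csf1r*, the receptor of the CSF1 protein and also on the macrophage marker list, fell by 1.71 (adjusted p = 0.00412 from limma). The proteins of *Csf1r* and *Flt3*, both on the receptor list, have kinase activity of their own, unlike the receptors described at the start. The call of *Il6st* was lost without pre-malignant library 2 and that of *Il10ra* without pre-malignant library 2 or 3, where adjusted p-values reached 0.0514 and 0.0610 from limma. In 1 fit of all 9 libraries, every call of a pathway gene in this comparison was lost.

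None of the 4 JAK kinases and none of the 7 STAT factors was called by limma, edgeR or DESeq2, and 2 and 1 of them were under 0.05 before adjustment, against 25.4% of all genes in either direction. The JAK kinases had log2 fold changes of 0.22 (*Jak1*), -0.12 (*Jak2*), -0.03 (*Jak3*) and -0.23 (*Tyk2*), with adjusted p-values of 0.134 to 0.917 from limma. Among the STAT factors, *Stat3*, which gp130 activates, had 0.18, and *Stat5a* and *Stat5b*, which IL-3 activates, had 0.13 and -0.29, with adjusted p-values of 0.131 to 0.514 from limma. Of all 7 STAT factors, 3 were higher and 4 lower, with a median of -0.15. Of the 16 other inhibitors, which are the remaining *Socs* genes, the PIAS genes, phosphatases such as *Ptpn6* and adaptors such as *Cbl*, 9 were higher and 7 lower, the median was 0.04, 6 were under 0.05 before adjustment, and limma, edgeR and DESeq2 called none.

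**Figure D4:**
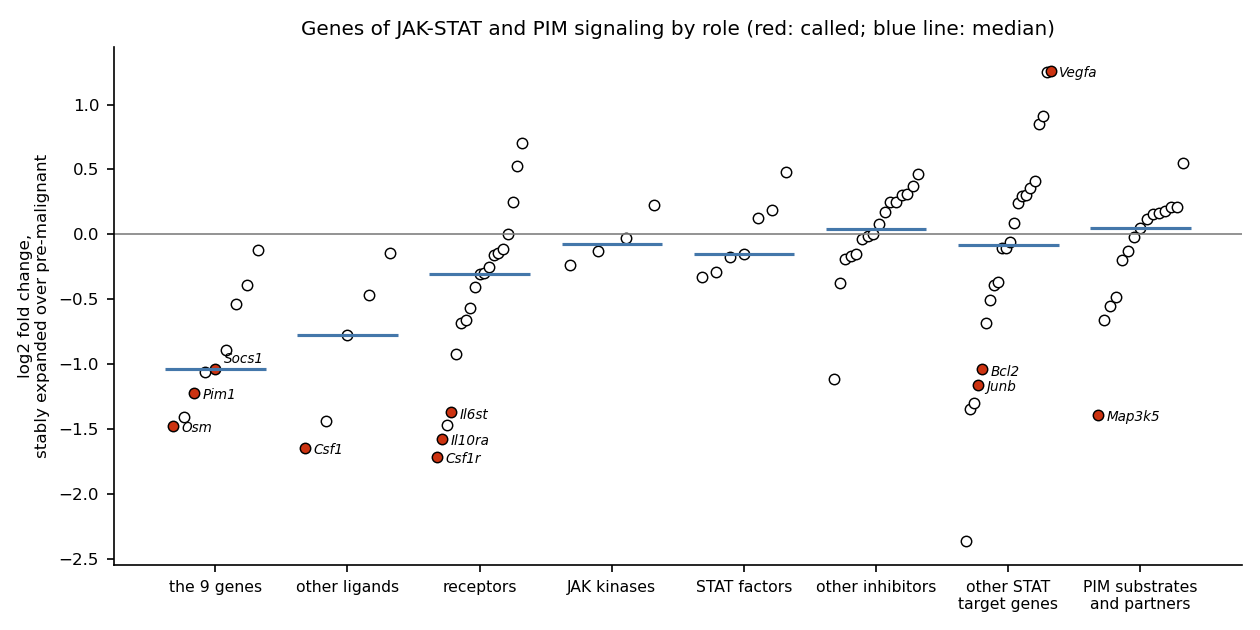
Log2 fold changes (vertical axis) of stably expanded over pre-malignant libraries for the tested genes of each role, 1 circle per gene, red and named where called, with the median of each role as a blue line. The median of the 9 genes is -1.04, that of the other ligands -0.77 and that of the receptors -0.31. Those of the JAK kinases, STAT factors, other inhibitors, other target genes and PIM substrates lie between -0.15 and 0.05.

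Other known STAT target genes moved in both directions. Of 26 listed, 22 were tested, 10 higher and 12 lower, with a median of -0.08. Of these, 3 were called, against 2.75% of all genes in either direction. *Vegfa*, the angiogenic growth factor gene, rose by 1.26 on the log2 scale (573 ± 160 to 1392 ± 461 normalized counts, adjusted p = 0.0173 from limma), and was not called without stably expanded library 1 (0.0523). *Junb*, an AP-1 subunit that is also on the list of immediate early genes, fell by 1.16 (adjusted p = 0.00544 from limma), and was under the 2-fold limit without that same library. *Bcl2*, the survival gene, fell by 1.04 (adjusted p = 0.0247 from limma), but was called in only 1 of the 6 fits that left out a library and neither by edgeR nor by DESeq2. Of 15 substrates and partners of the PIM kinases, all tested, 8 were higher and 7 lower, and 1 was called, against 2.75% of all genes. That gene was *Map3k5*, which encodes the stress kinase ASK1 and fell by 1.39 (adjusted p = 0.00606 from limma).

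In the other comparisons no gene of the 7 pathway lists was called by limma, edgeR or DESeq2. Between de novo expanded and pre-malignant libraries, 12 of their 89 tested genes were under 0.05 before adjustment, against 11.3% of all genes, and between stably and de novo expanded libraries 3 of 89, against 4.83%. Without de novo expanded library 3, 8 were called in the first of these comparisons, against 214 of all 14224 genes. The receptor gene *Flt3* was higher by 1.51 on the log2 scale, *Csf3r* was lower (-1.22), and among target genes the cyclin genes *Ccnd1* (2.06) and *Ccnd2* (1.74) were higher and *Vegfa* (-1.78) lower. In the second comparison 12 were called, against 508 of all 13756 genes. Among the 12 were *Csf1* (-1.38), *Il6st* (-1.47), *Bcl2* (-1.76) and *Map3k5* (-1.06), lower in the stably expanded clone, and *Vegfa* (3.06), higher.

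Other gene groups moved with the same libraries. Immediate early genes, which cells induce within minutes of stress or dissociation, summed to 45132 to 50074 normalized counts in the pre-malignant, 23486 to 30268 in the de novo expanded and 15778 to 34035 in the stably expanded libraries, and all 19 tested were lower in the stably expanded clone, 7 of them called, against 1.55% of all genes called lower and 49.5% below 0. Interferon-stimulated genes summed to 5284 to 6017, 3728 to 4576 and 3698 to 4628 in the 3 groups, with 4 of 18 called lower. The 10 B cell markers summed to 2981 to 3602, 1074 to 2876 and 1212 to 1459, with 5 of 9 tested called lower. For all 3 lists, every leukemic library lay below every pre-malignant one, as for *Pim1*, *Osm* and *Socs1*. Late neutrophil markers summed to 2580 to 3234, 2158 to 8354 and 7917 to 60669, with all stably expanded libraries and de novo expanded library 3 above the pre-malignant range, and 5 of 8 tested were called higher in the stably expanded clone, against 2.75% of all genes called in either direction. Macrophage and monocyte markers overlapped between the groups (8680 to 11303, 8588 to 11723 and 9697 to 11726). Erythroid markers (370 to 839, 53.2 to 315 and 84.6 to 474) and platelet markers (842 to 901, 427 to 923 and 503 to 746) had no called gene in any comparison. The part of these gene groups in the values of *Pim1*, *Osm* and *Socs1* was not tested.

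**Figure D5:**
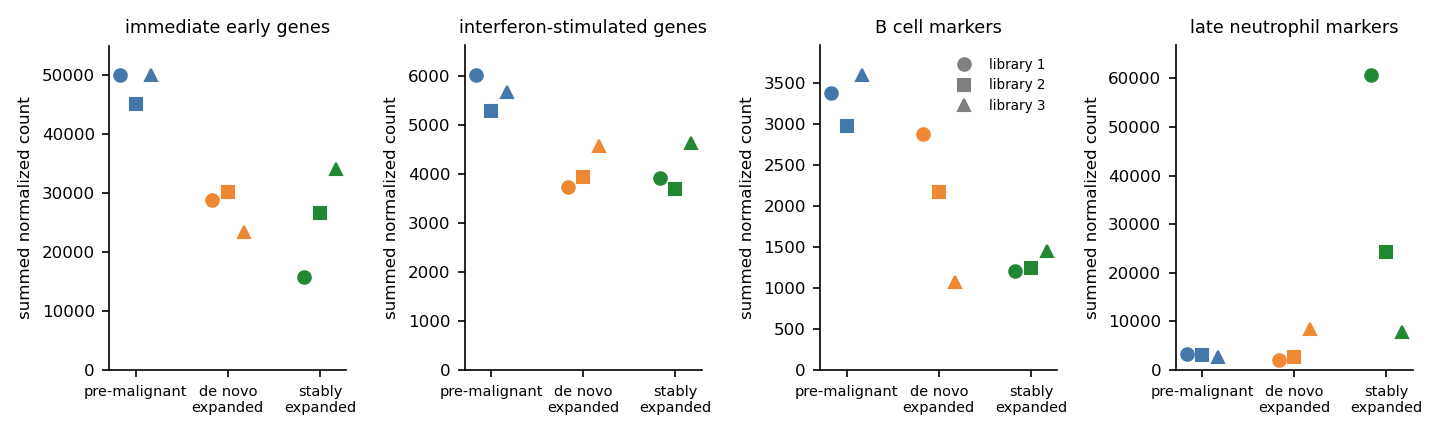
Summed normalized counts (linear axes from 0) of 4 gene lists in each library, by group, with libraries 1 to 3 as circle, square and triangle. Immediate early, interferon-stimulated and B cell genes are lower in every leukemic than in every pre-malignant library, and late neutrophil markers are highest in stably expanded library 1, at 60669.

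Genes that varied most like each of the 9 over the 9 libraries were ranked by Pearson's r of log2 values among 13401 other genes. These libraries share groups, mice and depth, so that r is given as a description. *Pim1* was followed most closely by *Cic* (0.983), *Ifi203* (0.979) and *Ifitm3* (0.973), and *Osm* by *Xdh* (0.987), *Arhgap17* (0.982) and *Dgkd* (0.979). *Socs1* was most like *Usp32* (0.969), *Gm47585* (0.955) and *Slc15a3* (0.952), and *Pim3* most like *Ifi204* (0.974), *Mier2* (0.973) and *Nfil3* (0.969). For *Socs2* the closest were *Pira2* (0.966), *Guf1* (0.966) and *Iqgap2* (0.964), and for *Bcl6* *Arhgef7* (0.976), *H2-T-ps* (0.9747) and *Gm47513* (0.959). *Pim2*, with *Usb1* (0.920), *Tsacc* (0.908) and *Mast3* (0.905), and *Cish*, with *Vps52* (0.934), *n-R5s193* (0.925) and *Gm11889* (0.891), had the weakest likeness. None of the 9 was among the 3 genes closest to another. *Socs3* was left out because it did not pass the minimum level in all 3 tables.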

How the data were processed

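The authors deposited 3 pairwise tables of gene counts divided by DESeq2 size factors, a normalized count signal that holds no raw counts (per the labels and file headers, GRCm38.p6, Trim Galore 0.6.4, STAR 2.6.1d and featureCounts 1.6.4). Whole reads were recovered from the steps between low values, for at least 99.9954% of nonzero values within 0.05 reads. Genes with a mean of at least 10 normalized counts over the 6 libraries of a table were fitted on log2(value + 1) with limma 3.58.1 in R 4.3.3 (trended eBayes, two-sided, Benjamini-Hochberg over all genes), a scale that understates changes of low genes. The fits were also run on simulated counts in which no library was set apart from the rest of its group. That run cannot show how the fits behave with such a library. EdgeR 4.0.16 and DESeq2 1.42.0 on recovered reads, other pseudocounts, filters and scalings, and fits without each library were alternatives. All 9 genes are named, with the called genes of the pathway lists, the JAK genes, *Stat3*, *Stat5a*, *Stat5b*, and the 3 genes most like each of the 9. Members and lists were chosen with earlier results of these data known. Figures were drawn with matplotlib 3.10.9. Some items are not reported here.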

Additional observations from a re-analysis of the deposited data

How the results depend on the processing

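Alternatives kept direction and side of the threshold in 128 of 132 values of the 9 genes for de novo expanded against pre-malignant, 113 of 131 for stably expanded against pre-malignant and 102 of 117 for stably against de novo expanded libraries. Counts of called genes moved most. For de novo expanded against pre-malignant they were 5 without a filter, 42 with DESeq2 and 5 in 1 fit of all 9 libraries, and 0 to 214 when 1 library was left out, with 0 to 1 of the 9 genes. For stably expanded against pre-malignant they were 6 in 1 fit of all 9 libraries (0 of the 9 genes), 1110 with no fold limit and 206 to 452 when 1 library was left out (240, 206 and 219 without pre-malignant libraries 1, 2 and 3 and 208 without stably expanded library 1), with 2 to 2 of the 9 genes. For stably against de novo expanded they were 2 without a filter, 29 with DESeq2, 2 in 1 fit of all 9 libraries and 0 to 508 when 1 library was left out, with 0 to 1 of the 9 genes. Only without de novo expanded library 3 did the comparisons with de novo expanded libraries reach 214 and 508. The cause was not tested.

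Some log2 fold changes that had not been called changed sign. *Pim2* moved to 0.00114 with quantile normalization in stably expanded against pre-malignant. In stably against de novo expanded, *Socs1* moved to 0.0503 with quantile normalization, *Cish* to -0.0852 with edgeR and -0.0772 with DESeq2, and *Bcl6* to -0.16 with both. When 1 library was left out, log2 fold changes ranged from -0.36 to 2.597 (*Socs2*) and -0.53 to 0.0507 (*Pim3*) in de novo expanded against pre-malignant, and from -0.39 to 0.12 (*Pim2*) and -1.83 to 0.0367 (*Socs2*) in stably expanded against pre-malignant. In stably against de novo expanded they ranged from -0.33 to 0.20 (*Socs1*), -0.37 to 0.60 (*Cish*), -0.73 to 1.098 (*Bcl6*), -0.57 to 0.0144 (*Pim3*) and -0.85 to 0.0251 (*Pim1*). Fitting unfiltered genes moved the median of all genes to -0.31 in stably expanded against pre-malignant (-0.38 with DESeq2). In de novo expanded against pre-malignant it moved to -0.18 (-0.19 with DESeq2). These fits include genes with counts near 0, and the cause of the shift was not tested. No paired analysis was possible because the columns of the tables can be linked to groups and not to single samples. *Socs3*, with 0 to 43 reads per library, is limited by counting.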

Other observations

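Besides the called genes, 12 pathway genes had an adjusted p-value under 0.05 from limma with less than 2-fold change between stably expanded and pre-malignant libraries, as had 726 of all 13968 genes. They are named here after their values were seen. They were 6 of 19 tested receptor genes, 3 of 22 tested other STAT target genes and 3 of 15 PIM substrates and partners. All 6 receptors were those of interferons or interleukins. *Il6ra*, the chain that binds IL-6, fell by 0.92 on the log2 scale (2065 ± 315 to 1085 ± 126 normalized counts, SD, n = 3, adjusted p = 0.00455). *Ifnar1* and *Ifnar2*, the chains of the type I interferon receptor, fell by 0.66 and 0.56 (adjusted p = 0.00877 and 0.0149 from limma), while *Ifngr1*, of the interferon gamma receptor, rose by 0.70 (3056 ± 188 to 5003 ± 757, adjusted p = 0.00864). *Il3ra* fell by 0.68 (0.0269) and *Il4ra* by 0.40 (0.0360). Among target genes *Irf1* fell by 0.68 (0.00837), and *Fgl2* and *Gfi1* rose by 0.91 (0.0104) and 0.85 (0.0102). Of the PIM substrates and partners, the cell cycle inhibitor gene *Cdkn1b* fell by 0.48 (0.0258) and *Akt1s1* by 0.55 (0.0452), and the phosphatase gene *Cdc25a* rose by 0.55 (0.0318).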
